A study of Mus musculus with 6 samples.

Results

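Resident Kupffer cell markers are the genes by which the self-renewing macrophages of the liver sinusoids are recognised. The set held 10 genes, matched by gene symbol among the 30029 genes of the count table, and all 10 were found. They were Clec4f, Marco, Cd163, Cd5l, Vsig4, Timd4, Folr2, Adgre1, Id3 and Nr1h3. Levels were compared between mouse livers labelled ATP7B knockout (KO_HFD, 3 libraries) and livers labelled wild type (WT_HFD, 3 libraries), and every animal had been on a high-fat diet for 24 weeks. Polyadenylated RNA of whole liver was sequenced, so hepatocytes supplied most of it and macrophages a small part. The labels used here give no strain, sex or age for the animals and no design for the knockout allele. No library on another diet was among the samples, so both groups share the diet and its length.

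Kupffer cells line the sinusoids and clear bacteria, immune complexes, aged red blood cells and dying cells from portal blood. In mice their identity is kept by signals from the surrounding endothelial and stellate cells, among them CSF1, TGF-beta and BMP ligands and Notch ligands. These signals act with the nuclear receptor LXR-alpha and the regulator ID3 to hold genes such as Clec4f and Timd4 on. When resident cells are lost, as is known in fatty liver disease, blood monocytes enter and can take up the niche, and Timd4 is among the last markers such cells acquire.

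Total counts were 68117601 to 70965999 in the libraries labelled KO and 57886524 to 67280139 in those labelled WT. Atp7b, the copper transporter that the label names, had 1987, 1908 and 2087 counts in the libraries labelled KO, against 909, 1192 and 2051 in those labelled WT (log2 fold change 0.05 ± 0.23 SE, adjusted p = 0.939, edgeR's quasi-likelihood test). The summed reads of this gene thus offered no check of genotype, and every direction here rests on the labels alone. The labels do not state that each library is a separate animal, and the spread behind each p-value may then be technical. Levels are CPM, library-scaled counts adjusted with TMM factors. In a principal component analysis of their log2 values, labelled KO replicate 3 lay farthest out on the leading component, which held 45.7% of the variance. Labelled WT replicate 1 stood apart on the next, which held 17.5%. The 9 hepatocyte genes in the table summed to 58889 to 75219 CPM in the libraries labelled KO and 58006 to 66480 CPM in those labelled WT. Most of that sum is Alb, at 38048.1, 45397.5 and 39409.3 CPM labelled KO and 28646.6, 31149.4 and 34976.5 CPM labelled WT. Of the 9 genes, 7 had a negative log2 fold change, labelled KO over labelled WT, with a median of -0.30. The sum thus does not show an equal level of each hepatocyte gene.

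No marker gene passed the test, but they did not lie alike. Adgre1 lay higher in every library labelled KO. Clec4f, Marco and Cd163 lay lower in each of them, and 8 of the 10 genes had their lowest value of all in labelled KO replicate 3. For Cd5l and Nr1h3 that value was close to the next (132 against 137 CPM and 79.5 against 83.1 CPM). The share of all tested genes with their lowest value in that library was not counted, so the 8 cannot be set against it. At an adjusted p under 0.05, edgeR called 0 of the 10, against 1.44% of all 17606 tested genes (0.932% higher, 0.506% lower). At an unadjusted p under 0.05 there were 3 of 10 (Adgre1, Nr1h3 and Cd163), against 19.7% of all tested genes. DESeq2 called 1, Adgre1, and limma voom 0. All libraries labelled KO lay above all those labelled WT for 1 of the 10 genes (13.7% of all tested genes) and below them for 3 (12% of all tested genes). The median log2 fold change of the 10, labelled KO over labelled WT, was -0.43, against -0.02 over all tested genes, and 7 were negative. It was -0.21 without labelled KO replicate 3 and -0.27 without labelled WT replicate 1. In bulk RNA, fewer Kupffer cells and less of a transcript per Kupffer cell cannot be told apart.

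**Figure D1:**
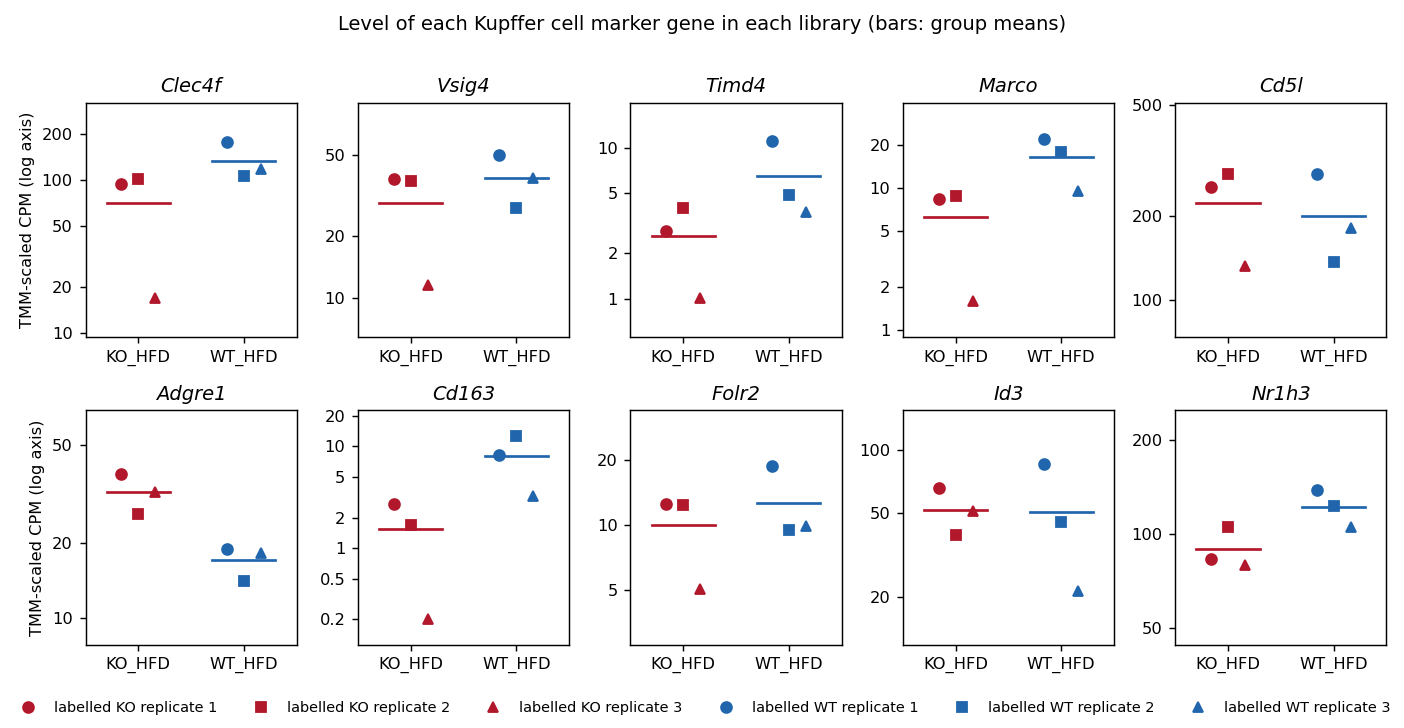
Level of each gene in TMM-scaled CPM (vertical log axis) in the 3 libraries labelled KO (red, left) and the 3 labelled WT (blue, right), with group means as bars. The triangle of labelled KO replicate 3 is the lowest point in 8 of 10 panels, narrowly so for Cd5l and Nr1h3. In the Adgre1 panel all 3 red points lie above all 3 blue points.

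Clec4f is a C-type lectin that binds galactose-bearing glycans and is the marker most restricted to Kupffer cells in mice. The gene (ENSMUSG00000014542) lies on the minus strand of GRCm39 chromosome 6, from 83621524 to 83633169. It had 94.4, 101 and 16.9 CPM in the libraries labelled KO, against 177, 105 and 117 CPM in those labelled WT. All values labelled KO lay below all values labelled WT, but replicates 1 and 2 came close to the lowest WT value and replicate 3 was far below. The log2 fold change was -0.91 ± 0.63 (SE, 95% interval -2.44 to 0.61, adjusted p = 0.496, edgeR). Without labelled KO replicate 3 it was -0.44 (adjusted p = 0.428).

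Marco and Cd163 are scavenger receptors. Marco binds bacteria and modified lipoproteins, and Cd163 takes up haemoglobin bound to haptoglobin. Marco (ENSMUSG00000026390, GRCm39 chromosome 1, 120402267 to 120432753) had 8.37, 8.75 and 1.62 CPM in the libraries labelled KO, against 21.9, 17.8 and 9.47 CPM in those labelled WT. The groups did not overlap, though the highest KO value stood near the lowest WT value. Its log2 fold change was -1.39 ± 0.64 (SE, adjusted p = 0.3, edgeR), and -0.94 without labelled KO replicate 3. Cd163 (ENSMUSG00000008845, chromosome 6, 124281615 to 124307486) had 2.74, 1.67 and 0.203 CPM in the libraries labelled KO and 8.27, 12.5 and 3.27 CPM in those labelled WT. It had the most negative log2 fold change of the 10, at -2.38 ± 0.90 (SE, 95% interval -4.55 to -0.22), without passing the adjusted test (adjusted p = 0.216, edgeR). Labelled KO replicate 3 held 18 Cd163 counts, and counting error alone allows 0.121 to 0.321 CPM there (95% Clopper-Pearson interval), below the level of every other library. Without that library the log2 fold change was -1.86 (adjusted p = 0.179).

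Timd4 encodes TIM-4, a receptor for phosphatidylserine on dying cells that marks long-lived resident macrophages. The gene (ENSMUSG00000055546, chromosome 11, 46701627 to 46735159) had 2.82, 3.97 and 1.01 CPM in the libraries labelled KO, against 10.96, 4.84 and 3.74 CPM in those labelled WT. The groups overlapped by 1 pair, since labelled KO replicate 2 exceeded labelled WT replicate 3. The log2 fold change was -1.33 ± 0.57 (SE, adjusted p = 0.255, edgeR). It was -0.94 without labelled KO replicate 3 and -0.73 without labelled WT replicate 1, the library with the highest level.

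Promoter sequences are shown for these 4 genes, the members with the most negative fold changes, because they lay low together in labelled KO replicate 3. RefSeq's table on GRCm38.p6, a different build from the gene coordinates above, held promoters of 9 of the 10 genes. Each line gives the 250 bases before the start site, 5′ to 3′ on the gene's strand. Capitals mark matches, on either strand, to AGGTCA (a half-site of nuclear receptors such as LXR), TGGGAA (RBPJ, the Notch effector), GAGGAA (PU.1), TGCTGA (a MAF half-site), GGCGCC (a SMAD site) and CACGTG (an E-box). The windows are chr6:83656117-83656366 (minus strand) for Clec4f, chr1:120505025-120505274 (minus) for Marco, chr6:124304401-124304650 (plus) for Cd163 and chr11:46810549-46810798 (plus) for Timd4.
Clec4f: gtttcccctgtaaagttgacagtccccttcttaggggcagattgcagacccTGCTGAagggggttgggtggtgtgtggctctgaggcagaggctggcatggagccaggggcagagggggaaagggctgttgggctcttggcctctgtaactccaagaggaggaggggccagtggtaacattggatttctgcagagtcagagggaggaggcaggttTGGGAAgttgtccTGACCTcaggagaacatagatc
Marco: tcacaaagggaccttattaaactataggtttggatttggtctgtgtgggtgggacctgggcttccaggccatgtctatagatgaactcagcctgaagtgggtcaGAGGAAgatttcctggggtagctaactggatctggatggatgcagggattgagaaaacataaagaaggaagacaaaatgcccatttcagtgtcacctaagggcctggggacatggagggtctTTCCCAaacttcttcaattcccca
Cd163: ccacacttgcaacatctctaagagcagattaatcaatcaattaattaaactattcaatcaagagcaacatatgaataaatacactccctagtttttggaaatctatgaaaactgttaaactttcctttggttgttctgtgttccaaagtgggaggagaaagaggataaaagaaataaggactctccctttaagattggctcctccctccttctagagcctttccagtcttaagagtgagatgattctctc
Timd4: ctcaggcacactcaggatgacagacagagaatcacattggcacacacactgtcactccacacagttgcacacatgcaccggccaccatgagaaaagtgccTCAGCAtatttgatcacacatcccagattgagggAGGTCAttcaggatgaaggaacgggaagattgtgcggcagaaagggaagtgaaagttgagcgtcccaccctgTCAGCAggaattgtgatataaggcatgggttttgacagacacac

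The Clec4f window held TGCTGA starting 199 bases before the start site, TGGGAA starting 35 bases before it and AGGTCA, read on the other strand, starting 22 bases before it. Timd4 held AGGTCA and 2 MAF half-sites, Marco held GAGGAA and TGGGAA, and the Cd163 window held none of these letters. The 9 genes had 11 promoters, with Nr1h3 and Folr2 entered more than once. Of these 11, AGGTCA was in 2 (14.02% of the 32851 promoters in the table), TGGGAA in 4 (21.6%), GAGGAA in 4 (23.3%), TGCTGA in 5 (16.1%), GGCGCC in 2 (9.59%) and CACGTG in 0 (6.02%). The windows of Nr1h3 overlap, so its matches to TGGGAA and GGCGCC count more than once. The full LXR element, called DR4, of 2 such half-sites was in 0 of the 11 and in 0.015% of all. Matches of this length are descriptions of the letters, not sites of binding.

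Vsig4, Folr2 and Cd5l overlapped between the groups. Vsig4, the complement receptor CRIg that binds C3 fragments, had 38.0, 37.4 and 11.6 CPM in the libraries labelled KO, against 49.9, 27.5 and 38.7 CPM in those labelled WT (log2 fold change -0.42 ± 0.46 SE, adjusted p = 0.697, edgeR). Folr2, a folate receptor of macrophages, had 12.5, 12.3 and 5.06 CPM labelled KO and 18.7, 9.46 and 9.89 CPM labelled WT (-0.35 ± 0.40 SE, adjusted p = 0.706, edgeR). In both genes the 2 other libraries labelled KO stood inside the range of those labelled WT and replicate 3 stood below it. Without replicate 3 the log2 fold changes were -0.04 for Vsig4 and -0.03 for Folr2. Reads of Folr2 may include some of Gm10602, a gene on the opposite strand that shares 2784 bases with it and had 955 counts over all libraries against 4346 for Folr2.

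Cd5l encodes AIM, a secreted scavenger protein of macrophages that is carried on IgM. It had 253, 283 and 132 CPM in the libraries labelled KO, against 282, 137 and 181 CPM in those labelled WT. The log2 fold change was 0.16 ± 0.34 (SE, adjusted p = 0.863, edgeR), and 0.42 without labelled KO replicate 3. Cd5l was the member with the highest level per length in both groups, at 109 ± 39.2 CPM per kilobase in the libraries labelled KO and 98.2 ± 36.5 in those labelled WT (SD, n = 3 each).

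Adgre1 encodes F4/80, the adhesion receptor used as the general surface marker of mouse macrophages, and resident and recruited cells both carry it. The gene (ENSMUSG00000004730, chromosome 17, 57665691 to 57790527) had 38.1, 26.1 and 32.1 CPM in the libraries labelled KO, against 18.8, 14.02 and 18.2 CPM in those labelled WT. The groups did not overlap, and labelled KO replicate 3 was in the middle of its group, unlike its place for the genes above. The mean was 32.1 ± 5.999 CPM labelled KO and 17.0 ± 2.62 CPM labelled WT (SD, n = 3 each). The log2 fold change of 0.92 ± 0.18 (SE, 95% interval 0.51 to 1.32) stood just outside the threshold (adjusted p = 0.051, edgeR). It passed without labelled KO replicate 2 (1.08, adjusted p = 0.0234), with total-count scaling (1.25, adjusted p = 0.0322), with no filter on low counts and with DESeq2 (0.93, adjusted p = 5.65e-04). Under the 9 other alternatives it did not pass (adjusted p = 0.0506 to 0.196, edgeR or limma voom). These took in limma voom, the replicate block and each other library left out, with the largest p without labelled WT replicate 2.

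The regulators Id3 and Nr1h3 are also made by other liver cells, Nr1h3 in quantity by hepatocytes. Id3, an inhibitor of basic helix-loop-helix factors needed for Kupffer cell development in mice, had 65.8, 39.5 and 51.1 CPM in the libraries labelled KO, against 85.9, 45.4 and 21.3 CPM in those labelled WT. Its log2 fold change was 0.03 ± 0.48 (SE, adjusted p = 0.983, edgeR), and the spread within the WT label was wider than that within the KO label. Nr1h3, which encodes LXR-alpha, had 83.1, 105 and 79.5 CPM labelled KO and 138, 123 and 105 CPM labelled WT. The groups touched, with labelled KO replicate 2 at the level of labelled WT replicate 3. The log2 fold change was -0.45 ± 0.16 (SE, 95% interval -0.83 to -0.07, adjusted p = 0.181, edgeR).

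**Figure D2:**
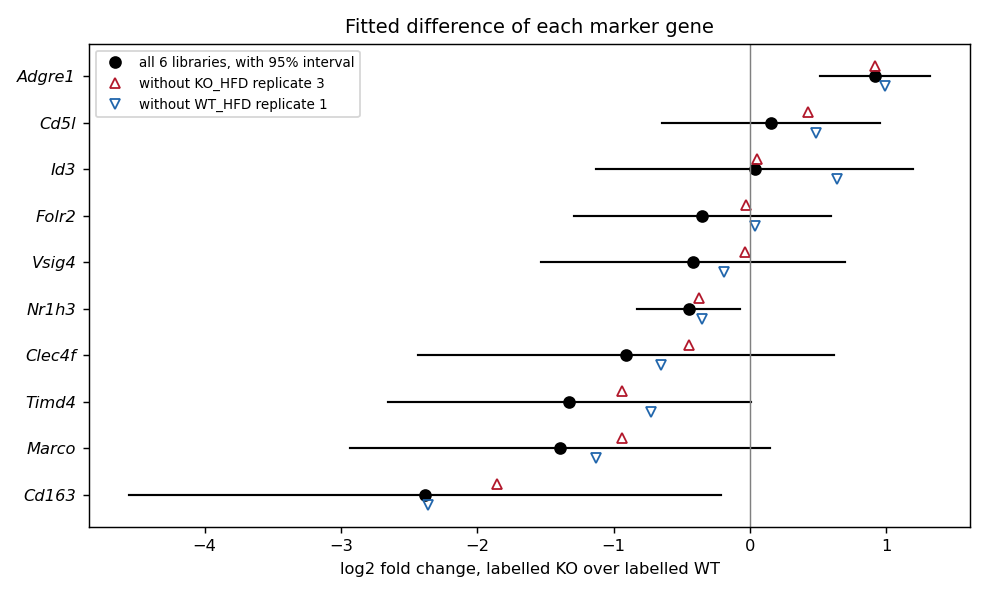
Log2 fold change of each gene, labelled KO over labelled WT, fitted on all 6 libraries (black, with 95% interval) and without labelled KO replicate 3 (red) or labelled WT replicate 1 (blue). The Adgre1 interval lies above 0 and those of Nr1h3 and Cd163 lie below it, while the other intervals include 0.

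Per length, using the longest transcript of each gene in GENCODE, the order in the libraries labelled WT ran from Cd5l at 98.2 CPM per kilobase through Nr1h3 at 61.4, Clec4f at 53.8, Id3 at 39.8, Vsig4 at 27.0, Folr2 at 10.5, Marco at 8.52, Adgre1 at 5.26 and Timd4 at 3.00 to Cd163 at 1.81. The SD over 3 libraries was 8.35 for Nr1h3, 15.6 for Clec4f and 25.5 for Id3, so the means of these neighbours did not differ beyond their spread, and nor did those of Folr2 (4.35) and Marco (3.29). Within libraries, Nr1h3 and Clec4f each stood above Id3 in every one labelled WT. The order of Nr1h3 and Clec4f changed between those libraries, as did that of Folr2 and Marco. In the libraries labelled KO, Adgre1 (9.92 ± 1.85) stood between Vsig4 (20.3 ± 10.5) and Folr2 (8.27 ± 3.52, SD, n = 3 each), and Marco was at 3.24 ± 2.09. Clec4f, at 28.6 ± 18.9, stood below Nr1h3 (44.9 ± 6.89) and Id3 (40.8 ± 10.3) there. By library, Clec4f had 38.2, 40.9 and 6.85, Nr1h3 41.9, 52.8 and 40.0, and Id3 51.5, 30.9 and 40.0. Clec4f was thus below Nr1h3 in each library labelled KO, but above Id3 in replicate 2.

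Dividing each gene by Adgre1 within a library removes library scaling. Because Adgre1 itself lay higher under the KO label, most genes have a lower ratio there: of the 17605 other tested genes, 61.7% had every KO ratio below every WT ratio, 86.3% had a negative mean difference, and the median difference was -0.93. Against that, all 9 marker ratios were lower on average in the libraries labelled KO, 7 of the 9 did not overlap, and their median difference was -1.47. The count of 7 is near the share of all genes and says little about the markers. The log2 ratio of Clec4f to Adgre1 was 1.31, 1.95 and -0.92 in the libraries labelled KO, against 3.23, 2.91 and 2.68 in those labelled WT. That is a mean difference of -2.16, with all 3 libraries labelled KO below, against the median of -0.93 over all genes. The differences were -3.73 for Cd163, -2.56 for Marco, -2.29 for Timd4, -1.47 for Vsig4, -1.36 for Nr1h3 and -1.30 for Folr2. Each of these 7 had p = 0.1 in an exact two-sided permutation test, the smallest p that 3 against 3 libraries allow, and an adjusted p of 0.129 over the 9 ratios. Cd5l (-0.76, exact p = 0.3) and Id3 (-0.69, exact p = 0.4) overlapped. Without labelled KO replicate 3 the same 7 did not overlap (65.9% of all genes, whose median was then -0.92), and the Clec4f difference was -1.31, the Cd163 difference -2.60 and the Marco difference -1.76. With Csf1r, the receptor for the macrophage growth factor, in place of Adgre1, all 9 were again negative with a median of -0.93 and 6 did not overlap, Folr2 now overlapping as well, against a median of -0.38 and 25.1% without overlap over all genes. A ratio shows only that genes differed unequally.

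**Figure D3:**
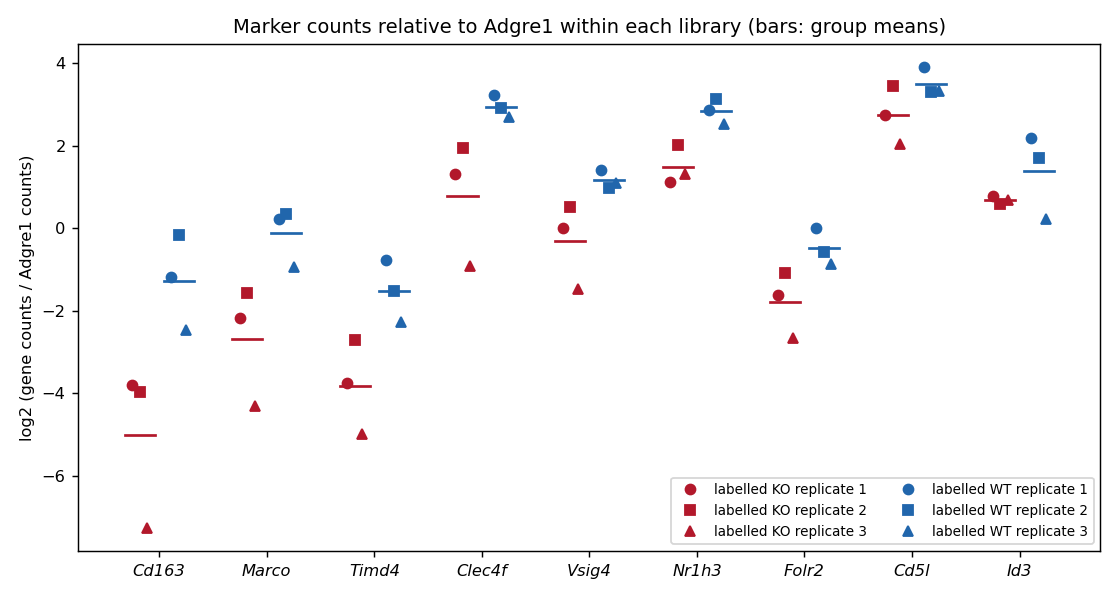
Log2 ratio of each gene's counts to Adgre1 counts in the same library (vertical axis) for libraries labelled KO (red, left of each pair) and labelled WT (blue, right), with group means as bars. Red points lie below all blue points for 7 genes, as they do for 61.7% of all tested genes, and overlap them for Cd5l and Id3.

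Across libraries Vsig4, Marco, Timd4, Folr2 and Cd163 were high and low in much the same libraries as Clec4f. Pearson's r of log2 CPM with Clec4f over 6 libraries was 0.965 for Vsig4, 0.953 for Marco, 0.925 for Timd4, 0.909 for Folr2, 0.888 for Cd163, 0.751 for Nr1h3, 0.622 for Cd5l, 0.0276 for Id3 and -0.509 for Adgre1. The 5 positive values of Vsig4, Marco, Timd4, Folr2 and Cd163 rest on labelled KO replicate 3 and labelled WT replicate 1, the lowest and highest in Clec4f. Without both, r was -0.02 for Vsig4, 0.225 for Marco, 0.473 for Timd4, -0.766 for Folr2, 0.224 for Cd163, 0.562 for Nr1h3, -0.553 for Cd5l, -0.952 for Id3 and -0.733 for Adgre1. The 5 other genes whose pattern was most like Clec4f, among 13383 with a mean of at least 1 CPM, were Abcf1 (r = 0.991), Eif4e (0.99), Npr2 (0.987), Zfp691 (0.986) and the urinary protein pseudogene Mup-ps18 (0.986, with reads that may be shared with its family), and 290 genes had r above 0.9. Most like Adgre1 were Samhd1 (1), Fyn (0.999), Mettl25 (0.995), Tspan17 (0.995) and Zeb2 (0.995), with 637 genes above 0.9. All libraries enter these values, so they share the group difference and the place of labelled KO replicate 3.

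Other genes enriched in Kupffer cells were also mixed. Of 22 such genes, 1 was called higher (0.932% of all tested genes) and 0 lower (0.506%). Of the same 22, 7 lay higher in every library labelled KO (13.7% of all tested genes) and 5 lay lower in every one (12%). The called gene was Vcam1, an adhesion molecule that endothelial cells also make, at 45.0 ± 10.5 CPM labelled KO and 16.7 ± 4.02 CPM labelled WT (SD, n = 3 each; log2 fold change 1.43, adjusted p = 0.0453, edgeR). Among the 5 below were Kcna2, a potassium channel enriched in Kupffer cells, at 4.58, 4.20 and 1.04 CPM labelled KO and 8.63, 5.73 and 8.40 CPM labelled WT, and Spic, the factor of red-pulp and iron-recycling macrophages, at 2.08, 1.99 and 1.36 CPM against 4.76, 2.72 and 2.93 CPM. Both were picked with their values in view, and neither passed (adjusted p = 0.237 and 0.165, edgeR). The others below were C6, Pcolce2 and Il18. The 7 above were Vcam1, Siglec1, Slc11a1, Pltp, Cd207, Axl and Lyz2. Siglec1 had 25.3, 14.3 and 11.6 CPM labelled KO against 11.5, 8.95 and 8.58 CPM labelled WT. Cd207 had 12.3, 16.8 and 8.07 CPM against 6.63, 4.81 and 7.23 CPM (adjusted p = 0.168 and 0.108, edgeR). The median of this list was 0.36, with 13 positive and 9 negative.

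General and recruited macrophage genes had higher medians than the marker set. Of 20 pan-macrophage genes, 1 was called higher (0.932% of all tested genes) and 0 lower (0.506%), and 14 lay higher in every library labelled KO (13.7%). All 20 had a positive log2 fold change, with a median of 0.78. Cd68, the lysosomal glycoprotein, had 39.4, 31.3 and 47.4 CPM labelled KO against 17.1, 11.9 and 11.6 CPM labelled WT (log2 fold change 1.55, adjusted p = 0.039, edgeR). Of 20 genes of recruited and lipid-associated macrophages, 2 were called higher (0.932% of all tested genes) and 0 lower (0.506%). Of the same 20, 16 lay higher in every library labelled KO (13.7% of all tested genes). Their median was 1.999, with 18 positive and 2 negative. Those called were Clec7a, the beta-glucan receptor, at 44.0 ± 9.97 CPM labelled KO and 10.99 ± 4.799 CPM labelled WT (SD, n = 3 each), and cathepsin K (Ctsk) at 4.83 ± 2.90 and 0.456 ± 0.231 CPM (adjusted p = 0.0462 and 0.0473, edgeR). The summed level of the recruited list was 1488, 1237 and 2285 CPM in the libraries labelled KO, against 974, 671 and 578 CPM in those labelled WT. Labelled KO replicate 3, the lowest in resident markers, was thus the highest in this list. The part that a change in macrophage kinds has in the marker values was not tested.

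The calls in these 3 lists depended on the tool and on which library was left out. In the order Kupffer-enriched, pan-macrophage and recruited, DESeq2 called 6, 11 and 14 higher (and 1, 0 and 0 lower), total-count scaling gave 6, 6 and 7 higher, and limma voom called 0, 1 and 1 higher. Over all 17606 tested genes DESeq2 called 1867 (70.3% of them higher), total-count scaling 1008 (93.4% higher) and limma voom 69 (43.5% higher). In edgeR they held 0, 0 and 0 called genes without labelled KO replicate 1, labelled KO replicate 3, labelled WT replicate 2 or labelled WT replicate 3. Over all genes only 11, 33, 0 and 4 were called in those settings, so 0 in a short list says little about the list. The 3 lists held 3, 6 and 7 without labelled KO replicate 2 (912 over all genes) and 5, 10 and 10 without labelled WT replicate 1 (382 over all genes).

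**Figure D4:**
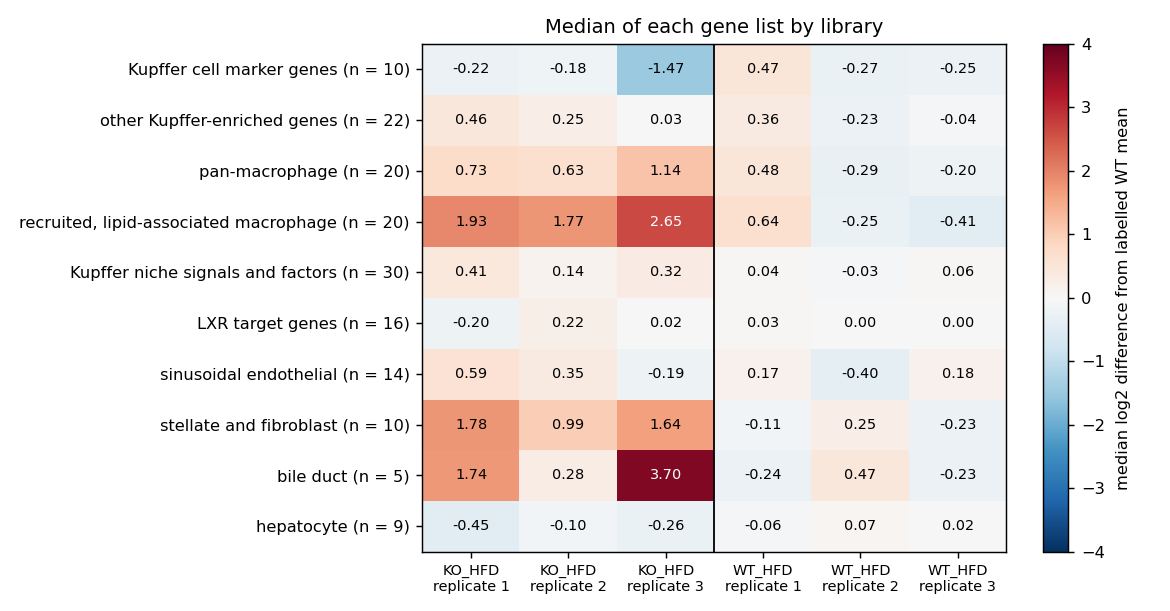
Median log2 difference of each gene list from the mean of the libraries labelled WT (colour and printed value), by library, with libraries labelled KO on the left. In labelled KO replicate 3 the Kupffer cell marker genes stand at -1.47 while the recruited macrophage list stands at 2.65.

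Among 30 niche signals, receptors and transcription factors of Kupffer cells, 2 were called higher (0.932% of all tested genes) and 0 lower (0.506%). Of the 30, 10 lay higher in every library labelled KO (13.7% of all tested genes) and 2 lay lower in every one (12%). At an unadjusted p under 0.05 there were 13 (19.7% of all tested genes). Both called genes encode ligands. Csf1, the macrophage growth factor, had 20.5, 18.6 and 19.9 CPM in the libraries labelled KO, against 9.62, 8.24 and 11.9 CPM in those labelled WT (log2 fold change 0.98 ± 0.16 SE, adjusted p = 0.0453, edgeR). Tgfb1 had 14.7, 12.4 and 14.5 CPM against 8.59, 6.03 and 6.42 CPM (0.99 ± 0.18 SE, adjusted p = 0.0489, edgeR). With all libraries, DESeq2 called 5 higher (of 1867 called over all genes), limma voom 0 (of 69), and total-count scaling gave 7 higher (of 1008). The list held 0 called genes without labelled KO replicate 1 or 3 or labelled WT replicate 2 or 3, and 4 without labelled KO replicate 2. Over all genes 11, 33, 0, 4 and 912 were called in these settings, in that order, so the counts of 0 say little about the list. The Notch ligand Dll4, the Notch effector Rbpj and the receptor Csf1r, picked with their values in view, stood at -0.04, 0.23 and 0.35 on the same scale (adjusted p = 0.976, 0.531 and 0.309, edgeR).

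A list made mostly of targets of LXR-alpha, the product of Nr1h3, had 0 of 16 members called, with a median of -0.07 that was 0.25 under total-count scaling. The list also held Nr1h2, which encodes the related receptor LXR-beta and stands in the niche list too. Total-count scaling gave 5 called higher (of 1008 called over all genes), DESeq2 6 higher and 1 lower (of 1867), and limma voom 0 (of 69). In edgeR, 3 were called higher and 1 lower without labelled WT replicate 1 (of 382 called over all genes), and 1 higher without labelled KO replicate 2 (of 912). The smallest p values were those of Pltp, a phospholipid transfer protein (log2 fold change 1.05 ± 0.22 SE, adjusted p = 0.0561, edgeR), and Mylip, which degrades the LDL receptor (0.84 ± 0.19 SE, adjusted p = 0.0605, edgeR). At an unadjusted p under 0.05 there were 8 of the 16, against 19.7% of all tested genes. Of 18 tested scavenger receptor and efferocytosis genes outside the marker set, 0 were called and 7 had an unadjusted p under 0.05 (19.7% of all tested genes). DESeq2 called 2 of them higher and 2 lower (of 1867 called over all genes), and limma voom 0 (of 69). Without labelled KO replicate 2 edgeR called 2 higher and 1 lower (of 912 called over all genes), and without labelled WT replicate 1 it called 3 higher (of 382). The closest were Axl, a receptor for dying cells (1.05 ± 0.21 SE, adjusted p = 0.0541, edgeR), and Mfge8, a protein that bridges dying cells to phagocytes (1.62 ± 0.36 SE, adjusted p = 0.0709, edgeR). Pltp and Axl also belong to the Kupffer-enriched list.

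Of 3 marker lists of other cell types, edgeR called genes in the stellate and fibroblast list and in neither of the others. The stellate and fibroblast list had 3 of 10 genes called higher (0.932% of all tested genes), Dcn, Lum and Hgf, and 0 lower (0.506%). Of the 10, 8 lay higher in every library labelled KO (13.7% of all tested genes), and 10 had an unadjusted p under 0.05 (19.7%). DESeq2 called 9 higher (of 1867 called over all genes) and limma voom 1 (of 69). The list summed to 483 to 847 CPM in the libraries labelled KO and 222 to 241 CPM in those labelled WT. In edgeR it held 0 called genes without labelled KO replicate 1 or labelled WT replicate 2 or 3, 1 without labelled KO replicate 3 or labelled WT replicate 1, and 8 without labelled KO replicate 2. Over all genes 11, 0, 4, 33, 382 and 912 were called in these settings, in that order, so the counts of 0 say little about the list. The bile duct list had 0 of 5 tested genes called by edgeR, and 3 at an unadjusted p under 0.05 (19.7% of all tested genes). DESeq2 called 2 (of 1867 over all genes), limma voom 0 (of 69), and edgeR without labelled KO replicate 2 called 3 (of 912). The list summed to 249, 79.7 and 631 CPM in the libraries labelled KO and to 109, 100 and 80.8 CPM in those labelled WT, with labelled KO replicate 3 the highest. Most of that sum is Spp1, a gene that also stands in the recruited macrophage list, at 232, 74.5 and 581 CPM labelled KO and 103, 90.4 and 74.8 CPM labelled WT. The smallest p values of the list were those of Epcam (log2 fold change 3.36, adjusted p = 0.15, edgeR) and Krt7 (2.53, adjusted p = 0.164, edgeR), both epithelial genes. Sinusoidal endothelial genes had 0 of 14 called by edgeR, DESeq2 or limma voom, and 2 at an unadjusted p under 0.05 (19.7% of all tested genes). They summed to 276 to 444 CPM labelled KO and 256 to 374 CPM labelled WT. The smallest p values were those of Pecam1 (0.71, adjusted p = 0.189, edgeR) and Fcgr2b (0.56, adjusted p = 0.207, edgeR). No marker of these 3 lists was at 0 in all libraries. Their part in the values of the Kupffer cell markers was not tested.

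In the functional terms deposited with the counts, 3 of the 10 genes (Marco, Nr1h3 and Timd4) carried apoptotic cell clearance, a term held by 22 of the 19400 genes with any term (0.113%). Membrane was the commonest term, on 8 of the 10 genes and on 34.3% of all annotated genes.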

How the data were processed

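Per the labels' protocols, libraries were made from Trizol-extracted RNA after poly(A) selection and fragmentation, with dUTP marking the second strand. The deposited values were raw read counts per gene, 1 column per library and none pooled. The submitters' processing notes name GRCm39 and edgeR without roles; the aligner, counter, annotation release and strand setting are not given in the sources used here.

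Column names matched the sample titles. Genes were kept by filterByExpr (17606 of 30029), scaled by TMM and tested by edgeR's quasi-likelihood method (robust; edgeR 4.0.16, limma 3.58.1, R 4.3.3), with Benjamini-Hochberg adjustment over all tested genes and a threshold of 0.05. Standard errors came from the F statistic. The members and lists were chosen with earlier results of these data known, which showed Adgre1 nearest the threshold. All members were named, and from each list whose calls are given the called genes with the smallest p (up to 4), or the 2 smallest where none was called. Outside this rule stand Spp1, Alb, Nr1h2, the Kupffer-enriched genes named as wholly above or below, and the genes said to be picked with their values in view. Ratios used counts plus 0.5. Lengths were of the longest transcript of GENCODE vM21 (GRCm38). A count of 3, the floor, is 0.0423 to 0.0518 CPM. Intervals and floors cover counting error only. Alternatives were DESeq2 1.42.0 and its size factors, limma voom, total counts, no filter, 10 counts in 3 libraries, the replicate block, each library left out, a prior count of 2, and Csf1r or summed C1q genes in place of Adgre1. Within groups, libraries differed beyond counting noise (lowest chi-square per gene of any pair 57.95), so no library is the same reads deposited again; this does not show that they are separate animals.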

Additional observations from a re-analysis of the deposited data

How the results depend on the processing

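Over all genes 253 were called, against 1008 with total counts, 473 with no filter, 1867 with DESeq2, 69 with limma voom, 4 with the replicate block in edgeR and 0 to 912 with each library left out. Of the 10 marker genes, 1 (Adgre1) was called with total counts, with no filter and with DESeq2, and 0 to 1 with each library left out; 0 were called under the replicate block. Over all genes, same-numbered libraries did not deviate together (r of -0.0457 to -0.00386). With 3 libraries a group this cannot show whether the numbers pair them. Under the block the SE of the log2 fold change was 0.32 for Marco (0.64 without it) and 0.48 for Cd163 (0.90 without it). Their adjusted p values were then 0.082 and 0.0729 (edgeR). The SE of Nr1h3 was 0.17 under the block and 0.16 without it. With total counts the median over all genes was 0.31 (-0.02 with TMM) and that of the markers -0.14. Less the median of all genes, the markers stood at -0.42 with TMM and -0.45 with total counts. The calls that total counts gave were 93.4% higher, against 64.8% with TMM. The median of the markers ran from -0.61 to -0.21 with each library left out. Signs turned for 3 genes near 0, and the cause was not tested: Id3 at -0.17 without labelled KO replicate 1, -0.04 without labelled WT replicate 2 and -0.34 without labelled WT replicate 3, Cd5l at -0.02 without labelled KO replicate 2 and -0.057 without labelled WT replicate 2, and Folr2 at 0.039 without labelled WT replicate 1. Over the libraries left out, Id3 ran from -0.34 to 0.64, Cd5l from -0.057 to 0.49 and Folr2 from -0.55 to 0.039. The 9 ratios to Adgre1 were negative under every alternative run for them, and 6 to 8 of the 9 did not overlap, against 25.1% to 70.2% of all tested genes under the same settings. Depth limits Cd163 most, with 18 counts in labelled KO replicate 3.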
